A study of Mus musculus with 16 samples.

Results

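PD-1hi effector CD8 T cells were compared with naive CD8 T cells across all genes, in spleens of leukemic mice. The comparison rests on 8 of the 16 expression arrays of the series, 4 labelled PD-1 hi CD8 and 4 labelled naive CD8, chosen by their titles alone. The hosts were female C57BL/6 mice (1 label field spells the strain C56BL/6) that had received leukemia cells from Eµ-TCL1 mice and were studied 6 weeks later; their age is not given in the sources used here. In the Eµ-TCL1 model a B-cell promoter and enhancer drive the human TCL1 oncogene in B cells, and the transferred cells grow as a chronic lymphocytic leukemia (CLL) in hosts that keep their own T cells. All 16 arrays come from such mice, so the naive cells are those of a leukemic animal and no leukemia-free group is in the comparison. Splenic TCRb+ CD8+ cells without lineage markers were sorted on CD127 and CD44 into naive cells, which were CD127hi and CD44low, and memory cells, which were CD127hi and CD44hi. Effector cells were CD127low with CD44int-hi and were split by PD-1 into a PD-1int and a PD-1hi gate. Each subset has 4 arrays. Arrays are numbered 1 to 4 within a subset, after the tags AT1 to AT4 that the titles repeat in every subset. What a tag stands for is not stated. No label says that each array is a separate mouse, so p-values reflect only the spread between these samples, which may be technical.

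Naive CD8 T cells circulate through lymphoid organs in a resting state, held there by IL-7 signalling, the homing receptor CCR7 and a transcription program with TCF-1, LEF1 and BACH2. Antigen turns them into dividing effector cells that store granzymes and perforin and secrete cytokines. When antigen persists, as in chronic infection or cancer, T cells keep PD-1 and further inhibitory receptors on their surface and adopt a state called exhaustion, which is tied to the transcription factor TOX. T cells with such receptors are a known feature of CLL.

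Levels are log2 values per gene, so a difference of 1 is a 2-fold change; ± after a difference is its standard error from limma over all 16 arrays, and adjusted p is the Benjamini-Hochberg value over the 22180 genes tested. A gene is said to have risen or fallen where adjusted p lay under 0.05. Affymetrix arrays give no detection call here, so it is not known at which level a gene is absent, and levels of different genes are not compared. In sorted bulk samples, fewer cells expressing a gene and less RNA per cell cannot be told apart.

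The genes of the sort markers went with the gates, which chose the cells by their proteins, and they are given as a check only. Pdcd1, which encodes PD-1, read 6.99, 7.11, 6.57 and 6.52 in the naive arrays and 11.52, 11.47, 11.18 and 11.44 in the PD-1hi arrays. Il7r, which encodes CD127, read 13.04, 12.89, 13.01 and 12.92 in naive and 4.48, 5.67, 4.60 and 4.90 in PD-1hi arrays. Cd44 read 5.96 to 6.23 in naive and 7.85 to 8.10 in PD-1hi arrays, below its mean of 8.99 in memory cells. Each of the 8 arrays therefore matched its label. Cd8a (mean 11.65 in naive and 11.46 in PD-1hi arrays) and Cd3e (12.56 and 12.93) were high in both subsets, and Cd4 stood at 5.95 and 6.05.

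Of 22180 genes, 6020 differed between PD-1hi and naive cells (27.1%): 2981 rose (13.4%) and 3039 fell (13.7%). A change of at least 2-fold was reached by 1373 genes (6.19%), of which 834 rose (3.76%) and 539 fell (2.43%). Rises dominated the extremes, with 88 rises and 28 falls of 10-fold or more. All 4 PD-1hi arrays lay above all 4 naive arrays in 2844 genes (12.8%) and below them in 2892 (13%). The median difference over all genes was -0.01. Arrays of a subset correlated at 0.990 to 0.992 among naive and 0.990 to 0.992 among PD-1hi arrays, against 0.947 to 0.952 across the subsets.

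**Figure D1:**
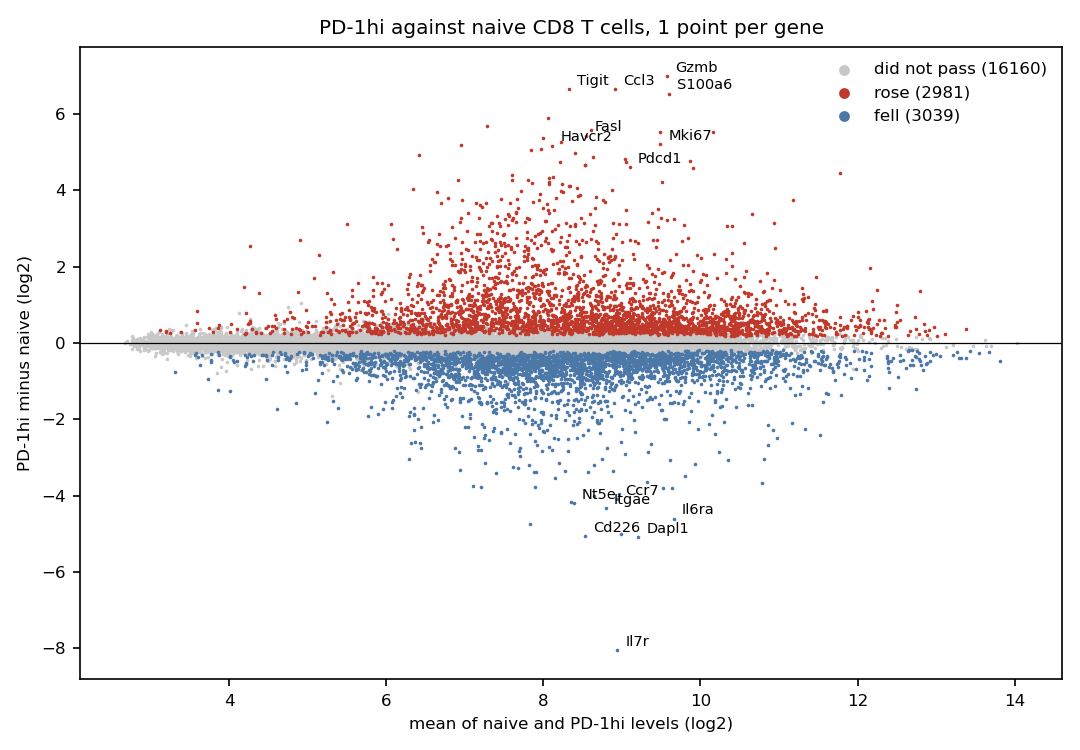
Each point is 1 of the 22180 genes: the horizontal axis gives the mean of its naive and PD-1hi levels (log2) and the vertical axis the PD-1hi minus naive difference (log2), with 2981 rises in red, 3039 falls in blue and the others in grey. Gzmb lies at the top with 7.01, and the sort gene Il7r at the bottom with -8.05.

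The nearest subset is the PD-1int effector, which shares the CD127low CD44int-hi part of the gate. The direct comparison called 734 genes (3.31%): PD-1hi cells were above PD-1int cells in 303 (1.37%) and below them in 431 (1.94%). The count was 474 without PD-1hi replicate 4 and 470 without PD-1int replicate 1. Among the 1373 genes with a change of 2-fold or more from naive, 348 lay further from naive in PD-1hi than in PD-1int cells by this test and 29 lay nearer. For the other 996 no difference between PD-1hi and PD-1int was called. Both effector subsets are set against the same 4 naive arrays, so values of PD-1int are given beside those of PD-1hi and only the direct comparison is tested.

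The 15 largest rises, with predicted loci, receptor gene segments and small RNAs left out, were led by the granule protease Gzmb. Gzmb read 6.45, 5.54, 6.51 and 5.79 in naive and 12.97, 13.04, 13.16 and 13.13 in PD-1hi arrays, a difference of 7.01 ± 0.17 (128-fold, adjusted p = 2.29e-15). Tigit, an inhibitory receptor, read 4.96, 5.15, 4.76 and 5.12 in naive and 11.63, 11.60, 11.62 and 11.76 in PD-1hi arrays (6.66 ± 0.11, adjusted p = 1.08e-17). The groups were far apart in both genes, and the naive arrays of Gzmb varied more than those of Tigit. Ccl3, a chemokine that draws in myeloid and T cells, read 6.08, 6.50, 4.99 and 4.78 in naive and 12.09, 12.25, 12.25 and 12.37 in PD-1hi arrays (6.65 ± 0.27, adjusted p = 2.69e-12). S100a6, which encodes a small calcium-binding protein, read 6.10, 6.16, 6.10 and 6.96 in naive and 12.85, 12.85, 12.85 and 12.92 in PD-1hi arrays (6.54 ± 0.14). The naive arrays of Ccl3 spread over more than 1 log2 unit, while its PD-1hi arrays and those of S100a6 barely varied.

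Next came the palmitoyltransferase Zdhhc2 (5.68 ± 0.23), the mitochondrial carbonic anhydrase Car5b (5.59 ± 0.16) and the inhibitory receptor Lilrb4a (5.54 ± 0.16). They were followed by the protease Gzmk (5.52 ± 0.19), the death ligand Fasl (5.44 ± 0.08), the lectin-like receptor Klre1 (5.37 ± 0.26) and the protease Gzma (5.26 ± 0.21). The proliferation marker Mki67 (5.22 ± 0.24), the mitotic gene Depdc1a (5.19 ± 0.43), the inhibitory receptor Havcr2 (5.17 ± 0.19), which encodes TIM-3, and the cyclin Ccna2 (5.09 ± 0.31) completed the 15. Of these 15 genes, 3 stood higher in PD-1hi than in PD-1int cells by test: Tigit (0.79), Ccl3 (1.15) and Havcr2 (1.30). Ccl3 lost that call without PD-1int replicate 1 (adjusted p = 0.084) and in 3 further fits that left out 1 array. Memory cells were already high in S100a6, with a mean of 12.23, and in Klre1 (10.67), whereas Havcr2 stood at 5.47 there, next to 5.52 in naive cells.

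Among the 15 largest falls, Il7r is a sort gene. Dapl1, a gene of resting and early-memory T cells, read 11.81, 11.77, 11.66 and 11.76 in naive and 6.62, 6.81, 6.63 and 6.56 in PD-1hi arrays (-5.10 ± 0.10, adjusted p = 1.64e-16). Il6ra, the IL-6 receptor chain that binds the cytokine, read 12.04, 11.94, 11.90 and 11.94 in naive and 7.45, 7.33, 7.31 and 7.34 in PD-1hi arrays (-4.60 ± 0.08, adjusted p = 1.08e-17). Neither gene's groups came near each other. Cd226, the activating receptor that competes with TIGIT for CD155, read 11.11, 11.14, 11.09 and 10.89 in naive and 4.72, 8.20, 6.14 and 4.97 in PD-1hi arrays (-5.05 ± 0.58, adjusted p = 1.59e-06). Its naive arrays were alike and its PD-1hi arrays spread over more than 3 log2 units, replicate 2 being the highest.

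The other large falls were Slc28a2b (-5.00 ± 0.22), a nucleoside transporter gene, the surface receptor Treml2 (-4.75 ± 0.18), Itgae (-4.33 ± 0.10), which encodes the integrin CD103, and the ectoenzyme Nt5e (-4.21 ± 0.19), which encodes CD73. Ssbp2 (-4.15 ± 0.29), the homing receptor Ccr7 (-4.09 ± 0.15), the interferon-inducible GTPase Iigp1 (-4.0 ± 0.26) and Pecam1 (-3.96 ± 0.17), which encodes the adhesion molecule CD31, followed. The chromatin organiser Satb1 (-3.81 ± 0.23), the deubiquitinase Usp28 (-3.79 ± 0.14) and Aff3 (-3.77 ± 0.18) closed the group. PD-1hi cells stood below PD-1int cells by test in Treml2 (-1.54), Nt5e (-1.81), Pecam1 (-1.06), Usp28 (-0.73), Aff3 (-1.50) and Il6ra (-0.40). Dapl1 (-0.46, adjusted p = 0.015) and Ssbp2 (-1.16, adjusted p = 0.033) were lower too, but lost the call in 3 and 5 fits that left out 1 array, with adjusted p up to 0.057 and 0.12. Cd226, given with its spread further on, and the sort gene Il7r (-2.58) were also below PD-1int cells. For Itgae the PD-1hi and PD-1int means were 6.63 and 6.59, and memory cells stood at 7.33, near the effector level. Treml2 and Nt5e had memory means of 10.18 and 10.37, close to their naive means of 10.20 and 10.49.

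**Figure D2:**
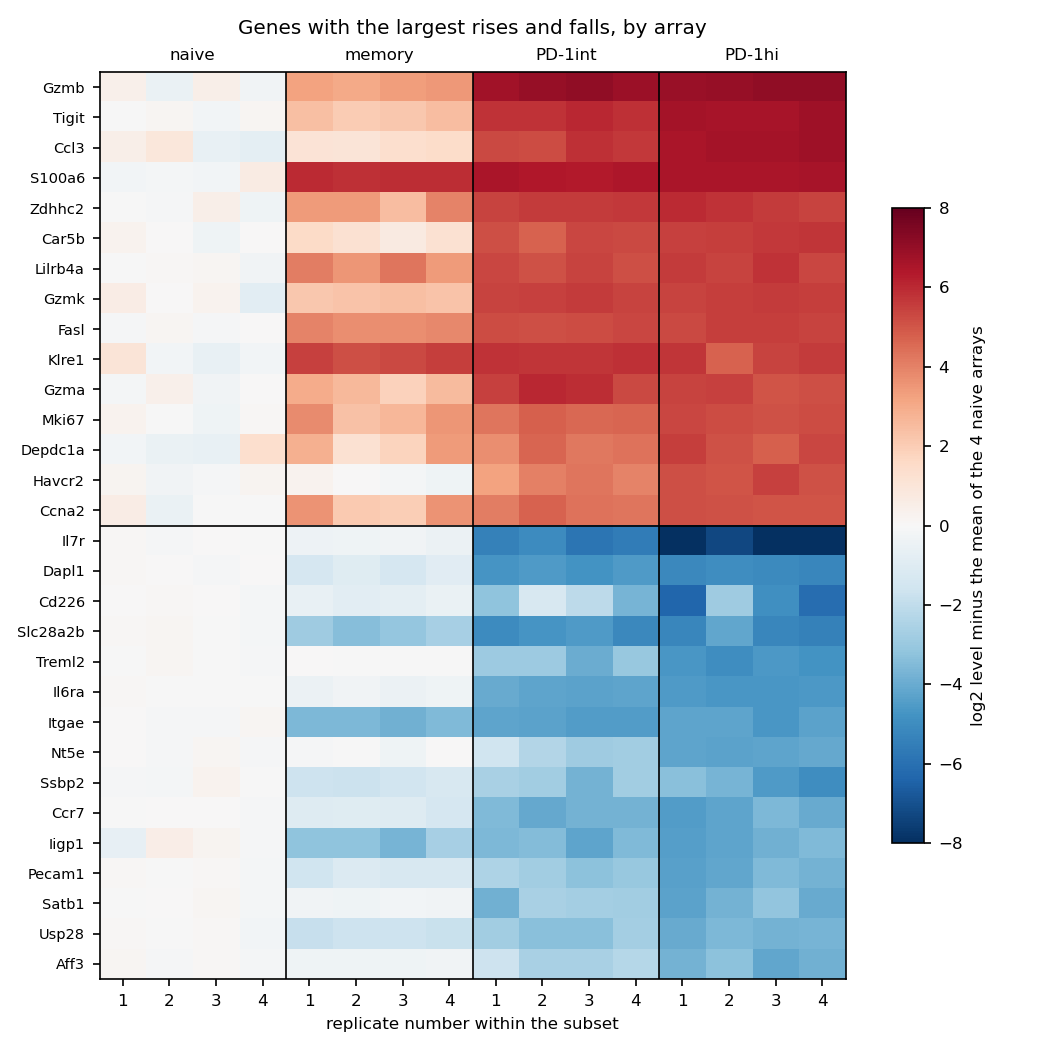
Rows are the 15 genes with the largest rises (top) and the 15 with the largest falls (bottom) and columns the 16 arrays by subset and replicate; colour is the level minus the mean of the 4 naive arrays (log2). PD-1int arrays resemble PD-1hi arrays in most rows, whereas Havcr2 is at the naive level in memory cells and Cd226 varies among the PD-1hi arrays.

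Genes were then read by function, against the shares over all genes of 13.4% rises and 13.7% falls. The lists were chosen with results of these arrays known, so their counts are descriptions. Il7r, Cd44 and Pdcd1 are members of some lists and are counted in them.

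Inhibitory receptors damp T-cell activation when they bind their ligands. Of 22 inhibitory receptors and ectoenzymes, 14 rose and 5 fell, with a median difference of 1.54. Lag3, which binds MHC class II, read 6.75, 6.66, 6.87 and 6.41 in naive and 11.07, 11.89, 11.47 and 11.26 in PD-1hi arrays (4.75 ± 0.17, adjusted p = 6e-13). Havcr2 read 5.72, 5.21, 5.44 and 5.71 in naive and 10.67, 10.54, 10.99 and 10.59 in PD-1hi arrays (adjusted p = 5.72e-13). No array of one group came near the other group in either gene. Cd244a (4.12 ± 0.20), Klrg1 (3.71 ± 0.22), Ctla4 (2.86 ± 0.13), Cd200r1 (2.16 ± 0.28), Cd101 (1.87 ± 0.13), Cd160 (1.21 ± 0.16), Cd200 (1.19 ± 0.20), a ligand of the receptor Cd200r1, and Lair1 (0.84 ± 0.17) rose as well.

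The falls on this list were Nt5e, Cd274 (-1.53 ± 0.21), the gene of PD-L1, a ligand of PD-1, Vsir (-0.70 ± 0.10), Btla (-0.57 ± 0.13) and Cd300a (-0.24 ± 0.08). Cd300a no longer passed in some fits that left out 1 array. The ectoenzyme pair moved apart. Entpd1, which encodes CD39 and breaks down ATP to AMP, read 6.47, 6.51, 6.57 and 6.57 in naive and 10.34, 10.31, 10.43 and 10.54 in PD-1hi arrays (3.87 ± 0.14, adjusted p = 4.11e-13). Nt5e, whose product turns AMP into adenosine, read 10.54, 10.38, 10.66 and 10.37 in naive and 6.27, 6.18, 6.29 and 6.39 in PD-1hi arrays (adjusted p = 8.7e-12).

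Set against PD-1int cells, 10 of the 22 genes were higher in PD-1hi cells (1.37% of all genes were) and 3 lower. Pdcd1 is 1 of the 10 and was used by the gate. The largest steps were in Lag3 (1.57 ± 0.17, adjusted p = 3.1e-05), Cd200r1 (1.48 ± 0.28, adjusted p = 0.0049) and Havcr2 (1.30 ± 0.19, adjusted p = 0.00052), followed by Cd244a (1.04), Ctla4 (0.97), Cd200 (0.80), Tigit (0.79), Cd101 (0.73) and Entpd1 (0.69). The call for Cd200 was lost without PD-1int replicate 1 (adjusted p = 0.10) and in 3 further fits that left out 1 array. Lower than in PD-1int cells were Nt5e, Lair1 (-1.0) and Klrg1 (-0.90), a marker of terminal effector cells; the call for Klrg1 was lost without PD-1hi replicate 4 (adjusted p = 0.10) and in 5 further fits that left out 1 array.

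**Figure D3:**
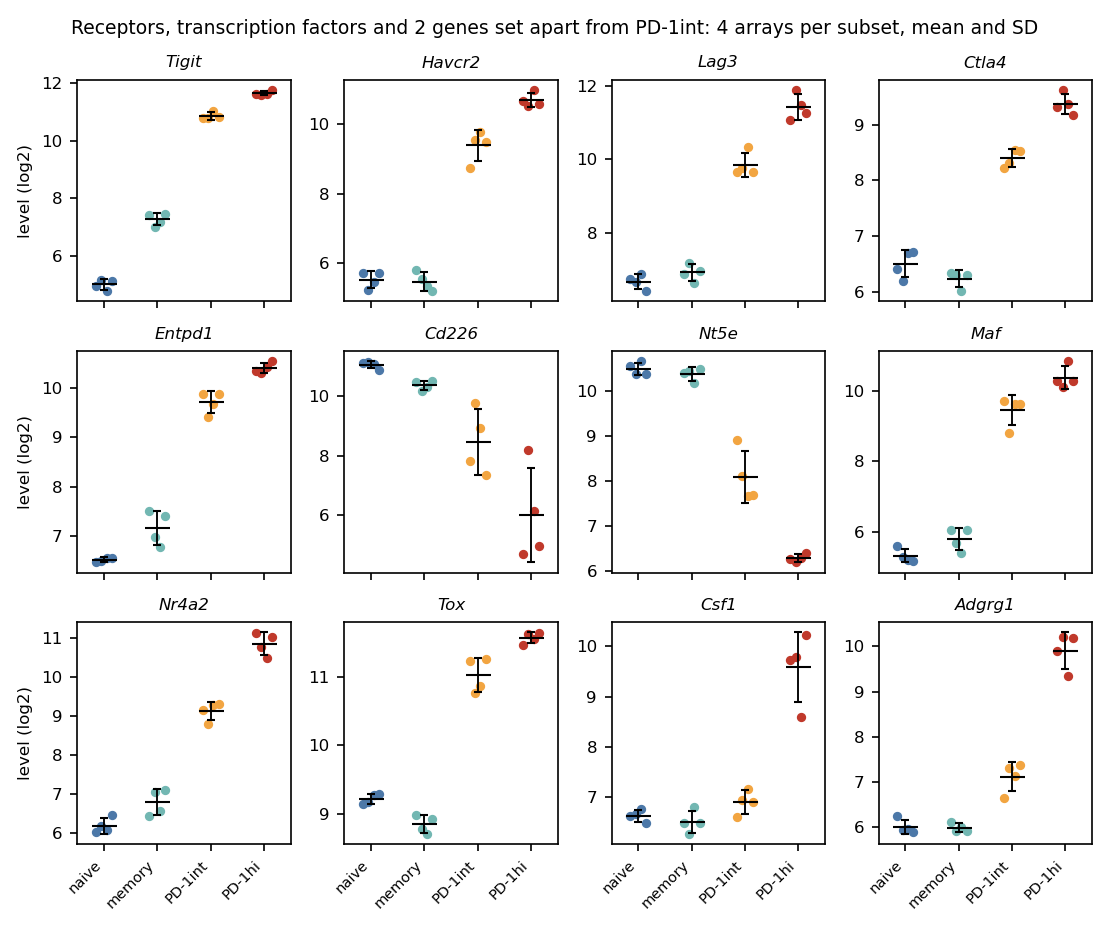
Each panel gives 1 gene's level (log2) in the 4 arrays of each subset as points, with the mean as a bar and the SD as whiskers. Tigit, Havcr2, Lag3, Ctla4, Entpd1, Maf, Nr4a2 and Tox step up from PD-1int to PD-1hi, Nt5e steps down, and Csf1 and Adgrg1 are high in the PD-1hi arrays alone of the 4 subsets.

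Costimulatory receptors split. Of 19 measured, 7 rose and 6 fell, with a median of 0.15. The rises were led by Slamf7 (4.82 ± 0.12) and by Tnfrsf9 (3.11 ± 0.15), which encodes the activation receptor 4-1BB. Tnfrsf9 read 7.46, 7.66, 7.25 and 7.62 in naive, 9.30, 8.99, 9.30 and 9.58 in PD-1int and 10.76, 10.52, 10.25 and 10.92 in PD-1hi arrays, so the 3 subsets did not overlap (PD-1hi minus PD-1int 1.32 ± 0.15, adjusted p = 3.9e-05). Cd27, Tnfrsf18, Cd48, Cd2 and Cd28 rose by 0.38 to 0.78; the call for Cd28 was lost without naive replicate 4 (adjusted p = 0.12) and in 4 further fits that left out 1 array. Besides Cd226, falls were seen in Crtam (-1.52 ± 0.18), Slamf6 (-1.35 ± 0.08), Tnfrsf25 (-1.34 ± 0.12), Tnfrsf14 (-0.52 ± 0.12) and Cd96 (-0.20 ± 0.07). The call for Cd96 was lost in 7 fits that left out 1 array and in 4 of 8 other settings. Crtam, a receptor of the same nectin-like family as Cd226, had a PD-1int mean of 9.15, near its naive mean of 8.94, and stood at 7.42 in PD-1hi cells (-1.73 ± 0.18 against PD-1int, adjusted p = 1.9e-05). For Cd226 the PD-1int arrays read 7.81, 9.79, 8.94 and 7.34, overlapping the PD-1hi arrays as groups. Each PD-1hi array read below the PD-1int array of the same number. The call for the Cd226 difference from PD-1int (-2.46 ± 0.58, adjusted p = 0.023) was lost in 4 fits that left out 1 array. It was also lost when the 8 arrays of these subsets were fitted alone (adjusted p = 0.13).

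On the list of transcription factors tied to exhaustion, 18 of 20 genes rose, with a median of 1.86. Rgs16, a signalling regulator and not a transcription factor, is a member of the list and is counted among the 18. Maf, which drives Il10 in T cells, read 5.59, 5.28, 5.20 and 5.18 in naive and 10.28, 10.10, 10.84 and 10.27 in PD-1hi arrays (5.06 ± 0.20, adjusted p = 1.45e-12). Nr4a2, a ligand-independent nuclear receptor that antigen signals switch on, read 6.02, 6.19, 6.07 and 6.47 in naive and 11.14, 10.78, 10.49 and 11.03 in PD-1hi arrays (4.67 ± 0.17, adjusted p = 5.34e-13). Both were among the largest rises of any gene. Tox read 9.14, 9.18, 9.27 and 9.29 in naive and 11.47, 11.63, 11.56 and 11.64 in PD-1hi arrays (2.35 ± 0.10, adjusted p = 7.01e-12).

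Prdm1 (3.71 ± 0.24), which encodes BLIMP-1, Bhlhe40 (3.65 ± 0.13), Ikzf2 (3.34 ± 0.20) and the T-box factor Eomes (3.26 ± 0.09) also rose more than 8-fold. Smaller rises were measured for Nr4a1 (2.26 ± 0.19), Tbx21 (1.95 ± 0.13), which encodes T-bet, Batf (1.77 ± 0.09), Irf4 (1.59 ± 0.18) and Tox2 (1.07 ± 0.11). Rbpj fell (-0.46 ± 0.14), a call lost in some fits that left out 1 array, and Egr3 (-0.29 ± 0.17) did not pass. Compared with PD-1int cells, 7 of the 20 were higher and 1 lower. The step was largest in Nr4a2 (1.73 ± 0.17, adjusted p = 9.4e-06), the signalling regulator Rgs16 (1.11), Maf (0.93) and Ikzf2 (0.92), and reached 0.54 in Tox. The call for Ikzf2 was lost in 5 fits that left out 1 array, with adjusted p up to 0.058. Tbx21 went the other way and was lower in PD-1hi than in PD-1int cells (-0.63 ± 0.13, adjusted p = 0.012), while Eomes had means of 11.29 and 11.19.

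The cytotoxic machinery was high. Of 22 granule and death ligand genes, 14 rose and 1 fell, with a median of 1.24. Beside Gzmb, Gzmk and Gzma, the pore-forming Prf1 rose by 2.50 ± 0.11, the protease inhibitors Serpinb6b and Serpinb9 by 2.68 ± 0.14 and 1.89 ± 0.12, and Rab27a, needed for granule release, by 1.93 ± 0.15. Fasl read 5.74, 5.97, 5.74 and 5.84 in naive and 11.11, 11.34, 11.35 and 11.23 in PD-1hi arrays (adjusted p = 6.36e-18), the smallest p of this list. The death ligand gene Tnfsf10 (1.45 ± 0.13) and the granule genes Cst7 (1.44 ± 0.12) and Nkg7 (1.36 ± 0.07) rose too.

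Not every granule gene followed. Gzmm read 7.58, 7.63, 7.35 and 7.65 in naive and 7.73, 7.66, 7.75 and 7.28 in PD-1hi arrays, overlapping and without a call (0.05 ± 0.12, adjusted p = 0.84). Its means were 12.14 in memory and 9.32 in PD-1int cells, and PD-1hi cells were below PD-1int cells by 1.72 ± 0.12 (adjusted p = 7.3e-07). The cathepsin Ctsw was also highest in memory and next highest in PD-1int cells, with naive and PD-1hi means of 11.71 and 11.68, against 12.58 for memory and 12.30 for PD-1int cells. Lamp1, a lysosome and granule membrane protein, fell (-0.55 ± 0.14). Gzmc, Gzmd, Gzmf, Gzmg and Gzmn did not pass; these granzymes are close copies of each other, and probes may not tell them apart.

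Among 19 cytokines and chemokines, 8 rose and 4 fell. Ifng, the main effector cytokine of CD8 T cells, read 5.97, 6.64, 5.82 and 6.31 in naive and 10.88, 10.87, 11.26 and 11.26 in PD-1hi arrays (4.88 ± 0.20, adjusted p = 1.79e-12). Il10, an inhibitory cytokine, read 5.58, 5.21, 4.97 and 5.50 in naive and 8.68, 8.87, 8.91 and 7.90 in PD-1hi arrays (3.27 ± 0.28, adjusted p = 4.71e-08). Tnf moved the other way: it read 6.81, 7.35, 7.12 and 7.35 in naive and 6.33, 6.55, 6.39 and 6.40 in PD-1hi arrays, all below the naive arrays (-0.74 ± 0.13, adjusted p = 0.00027). These are mRNA levels of unstimulated sorted cells and give no measure of secretion.

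The chemokine genes Ccl5 (4.46 ± 0.08), Ccl4 (3.51 ± 0.21) and Xcl1 (2.35 ± 0.24) rose, and so did the growth factor Tgfb1 (0.56 ± 0.09). Csf1, the growth factor of macrophages, read 6.62, 6.66, 6.77 and 6.49 in naive, 6.60, 6.95, 7.17 and 6.91 in PD-1int and 9.72, 9.78, 8.60 and 10.23 in PD-1hi arrays. The PD-1hi arrays stood apart from both other subsets, at 2.95 ± 0.23 above naive (adjusted p = 1.52e-08) and 2.68 ± 0.23 above PD-1int (adjusted p = 2.3e-06). Against PD-1int cells 5 of the 19 cytokine and chemokine genes were higher and 4 lower. These counts came to as few as 3 and 2 when 1 array was left out. Ifng (0.99) and Il10 (1.45) were among the higher ones, and Ltb (-0.84, adjusted p = 9.5e-05) and Xcl1 (-1.07, adjusted p = 0.02) among the lower. The call for Xcl1 was lost in 4 fits that left out 1 array. The members of the tumor necrosis factor family other than Tnf that fell were Tnfsf8 (-3.41 ± 0.13), Ltb (-2.41 ± 0.10) and Lta (-0.41 ± 0.09). Il2 was listed at means of 4.19 in naive and 4.13 in PD-1hi arrays and did not pass against naive (-0.06 ± 0.16), while it lay below PD-1int cells by 0.77 (adjusted p = 0.011).

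Killer lectin-like receptors are NK-cell receptors that effector and memory CD8 T cells also use. Of 14, 8 rose and 1 fell, with a median of 0.92. Klrk1 (4.27 ± 0.21), which encodes NKG2D, Klrc2 (2.72 ± 0.32), Klrc3 (2.55 ± 0.43) and Klrc1 (2.23 ± 0.20) rose beside Klre1 and Klrg1, and Klrd1 (-0.75 ± 0.14), the partner chain of the Klrc products, fell. None of the 14 was higher in PD-1hi than in PD-1int cells and 5 were lower, Klra9 by 1.40 (adjusted p = 0.0034). The calls for Klrc1, Klrc2, Klrg1 and Klrk1 against PD-1int were lost in 6 or 7 fits that left out 1 array. In 7 of the 8 such fits the count of 5 came to 1 to 3, all but the fit without PD-1hi replicate 3. The Klrc and Klra genes are near copies of each other, so their single values are uncertain.

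Receptors for migration changed in both directions. Of 19 chemokine and egress receptors, 5 rose and 5 fell. Ccr7, which keeps T cells in lymph nodes and spleen, read 10.97, 11.02, 11.02 and 10.89 in naive and 6.49, 6.75, 7.37 and 6.94 in PD-1hi arrays (adjusted p = 5.87e-13). S1pr1, which lets lymphocytes leave lymphoid organs, fell by 2.15 ± 0.10, and Gpr183, Ccr9 and Cxcr4 fell by 1.68, 1.36 and 1.10. The fractalkine receptor Cx3cr1 (3.09 ± 0.16), Ccr2 (2.66 ± 0.28), the B-cell-follicle receptor Cxcr5 (2.09 ± 0.15), S1pr2 (1.19 ± 0.10) and Cxcr3 (0.95 ± 0.21) rose. Against PD-1int cells 7 of the 19 were lower and 1 higher, and the count of 7 came to as few as 4 when 1 array was left out. Ccr2 (-1.34, adjusted p = 0.0097), Cxcr3 (-1.11, adjusted p = 0.0063) and Cx3cr1 (-0.70, adjusted p = 0.019) were among the lower ones. The call for Cx3cr1 was lost in 2 fits that left out 1 array, and that for Ccr2 with the 8 arrays alone (adjusted p = 0.059). Cxcr6, with no call against naive (0.38 ± 0.19), was higher than in PD-1int cells (1.12, adjusted p = 0.002).

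Of 17 integrins and adhesion genes, 8 rose and 4 fell. Itgal and Itgb2, whose products form LFA-1, rose by 1.18 ± 0.07 and 1.20 ± 0.08, and Itgax (2.40 ± 0.25), Itgav (1.23 ± 0.12) and Itgam (1.03 ± 0.20) rose. Itgae, Pecam1, Icam2 (-1.21 ± 0.11) and Itgb7 (-0.81 ± 0.11), the partner of the Itgae product, fell. Against PD-1int cells 0 of the 17 were higher and 5 lower, Itgax among them (-1.63, adjusted p = 0.000885). Among 16 S100, annexin and galectin genes, 9 rose and 0 fell; S100a4 (4.76 ± 0.18), Anxa2 (3.83 ± 0.10) and Lgals1 (3.74 ± 0.14) were the largest after S100a6. None of these 4 differed from PD-1int cells by test, with steps of 0.07 to 0.41. Lgals3, which encodes galectin-3, a LAG-3 ligand, rose by 1.66 ± 0.14.

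Cytokine receptors mostly fell, 14 of 23, against 7 rises. IL-6 receptor genes fell together, Il6ra as given and Il6st, the shared signalling chain, by 2.09 ± 0.10. Of the interferon-gamma receptor, Ifngr2 fell by 2.84 ± 0.16 while Ifngr1 did not pass (-0.02 ± 0.10). The IL-2 and IL-15 receptor chain Il2rb (1.96 ± 0.08), the IL-10 receptor chain Il10ra (2.70 ± 0.14) and the IL-12 receptor chain Il12rb1 (2.27 ± 0.17) rose, whereas the other IL-12 chain Il12rb2 (-1.86 ± 0.26), Il4ra (-1.89 ± 0.11) and Tgfbr3 (-2.68 ± 0.15) fell.

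The IL-18 receptor set PD-1hi cells apart from the other antigen-experienced subsets. Il18r1 read 9.03, 8.90, 9.16 and 8.96 in naive, 9.02, 9.42, 8.74 and 8.38 in PD-1int and 6.75, 7.14, 6.84 and 6.95 in PD-1hi arrays. The PD-1int arrays overlapped the naive ones, and the PD-1hi arrays were below both (-2.09 ± 0.16 against naive, adjusted p = 6.86e-09, and -1.97 ± 0.16 against PD-1int, adjusted p = 9.6e-07). Its partner chain Il18rap was higher than in naive cells (1.14 ± 0.27) and lower than in PD-1int cells (-2.37, adjusted p = 4.5e-05). The memory mean of Il18r1 was 10.86. The interferon receptor chain Ifnar2 was likewise below naive (-0.82 ± 0.10) and PD-1int cells (-1.16, adjusted p = 1.6e-06).

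In the T-cell receptor complex and its proximal signalling, 13 of 24 genes rose and 5 fell, mostly by small amounts (median 0.35). The kinases Fyn and Zap70 both rose by 1.11, and the negative regulators Ubash3b (2.18 ± 0.10) and Sla (1.32 ± 0.10), the adaptor Sh2d2a (1.72 ± 0.07) and the ubiquitin ligase Cblb (0.79 ± 0.08) rose. Ptpn6, which encodes the phosphatase SHP-1, fell by 1.54 ± 0.09 and was 0.86 below PD-1int cells (adjusted p = 1.1e-05). Dgka, which degrades the second messenger diacylglycerol, fell by 1.19 ± 0.06, and Txk, Rasgrp1 and Cd8b1 fell by 0.87, 0.62 and 0.33. Among 23 feedback regulators of signalling, 10 rose and 3 fell. Rgs1 (3.55 ± 0.22), Dusp5 (2.62 ± 0.12), Rgs16 (2.40 ± 0.17), Dusp6 (2.34 ± 0.17) and Dusp1 (1.66 ± 0.17) rose, and Rgs10 (-1.72 ± 0.18), Socs1 (-0.64 ± 0.08) and Dusp10 (-0.49 ± 0.12) fell. Rgs1 (1.03), Rgs16 (1.11) and Dusp1 (0.99) were also higher than in PD-1int cells.

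Genes of naive and quiescent T cells fell in 20 of 23 cases, with a median of -1.79. Lef1, part of the resting program with TCF-1, fell by 3.05 ± 0.09, and Bach2, a repressor of effector genes, by 2.65 ± 0.12. Foxp1 fell by 1.79 ± 0.09, Foxo1 by 0.49 ± 0.09 and Klf2, which drives S1pr1, by 0.83 ± 0.10. Satb1 read 11.52, 11.55, 11.71 and 11.41 in naive and 7.25, 7.79, 8.40 and 7.53 in PD-1hi arrays (adjusted p = 5.23e-10). Igfbp4 (-3.04 ± 0.13), Actn1 (-3.16 ± 0.16) and Pik3ip1 (-3.39 ± 0.17) were among the larger falls. Myb rose (0.58 ± 0.15), and the anti-proliferative genes Btg1 (0.23 ± 0.18) and Btg2 (-0.05 ± 0.13) did not pass. PD-1hi cells lay below PD-1int cells in 10 of the 23, with S1pr1 (-0.90), Lef1 (-0.83), Slfn1 (-0.67) and Bach2 (-0.62) among them. Actn1 was 0.85 higher than in PD-1int cells (adjusted p = 0.0042), so it lay nearer to naive there.

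Progenitor-exhausted T cells are the self-renewing pool of an exhausted response. Of 12 genes of that state, 7 fell and 2 rose. Slamf6, Id3 (-0.91 ± 0.14), Bcl6 (-0.53 ± 0.12) and Traf1 (-0.52 ± 0.09) fell with Lef1, Ccr7 and Il7r, while Cxcr5 and Xcl1 rose. Against PD-1int cells 0 of the 12 were higher and 7 lower, Bcl6 by 0.88 (adjusted p = 0.00034). The count of 7 came to 3 when PD-1int replicate 1 was left out.

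Genes of cell division rose together. All 39 measured mitosis genes and 35 of 37 DNA replication genes rose, with 0 falls, and medians of 3.13 and 1.49. Mki67 read 7.19, 6.83, 6.52 and 6.98 in naive and 12.24, 12.07, 11.98 and 12.08 in PD-1hi arrays (adjusted p = 8.7e-12). Kif11, a spindle motor, read 5.92, 5.93, 5.61 and 5.92 in naive and 10.77, 10.49, 10.43 and 10.67 in PD-1hi arrays (4.74 ± 0.25, adjusted p = 6.65e-11). Birc5, which encodes survivin of the chromosomal passenger complex, read 5.89, 5.18, 6.19 and 6.39 in naive and 10.48, 10.18, 9.95 and 10.37 in PD-1hi arrays (4.33 ± 0.31, adjusted p = 3.23e-09). The gap between groups in each of the 3 genes was larger than the spread within either group.

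Cdk1 (4.16 ± 0.25), Top2a (4.05 ± 0.24), Rrm2 (3.41 ± 0.23) and Aurkb (3.13 ± 0.20) rose more than 8-fold, and the replication genes Mcm5 (1.81 ± 0.16) and Pcna (1.03 ± 0.11) less. Relative to the naive mean, the mean of the mitosis list was 2.87 to 3.29 in the 4 PD-1hi arrays, 2.01 to 2.52 in PD-1int, 0.73 to 1.76 in memory and -0.06 to 0.06 in naive arrays. Against PD-1int cells 12 of the 39 mitosis genes were higher and 0 lower, Prc1 (1.06), Ttk (1.10), Kif20a (0.89) and Cenpf (0.87) among them. That count fell to between 5 and 7 without PD-1hi replicate 1, 2 or 4 or PD-1int replicate 1 or 3, and came to 28 when these 8 arrays were fitted alone. For DNA replication it was 1 of 37, Rrm1, whose call was lost in 5 fits that left out 1 array. The count was 0 to 2 over those fits and reached 5 when the 8 arrays were fitted alone. Gins3 (0.69 ± 0.26, called in 4 other settings) and Pole2 (-0.16 ± 0.15) were the replication genes that did not pass.

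Promoters of 3 of these mitosis genes are shown because the members moved together and cell-cycle promoters are known for 2 kinds of element. They are CCAAT boxes, bound by NF-Y, and the cell-cycle genes homology region, bound by the DREAM and MuvB complexes. Each line gives the 250 bases before the gene's start, 5′ to 3′ on the gene's strand, from RefSeq (GRCm38.p6); capitals mark CCAAT, which reads ATTGG on the other strand, and the homology region in the form TTTGAA (on the other strand TTCAAA) or in the palindromic form TTTAAA.
Mki67, chr7:135716380-135716629, minus strand: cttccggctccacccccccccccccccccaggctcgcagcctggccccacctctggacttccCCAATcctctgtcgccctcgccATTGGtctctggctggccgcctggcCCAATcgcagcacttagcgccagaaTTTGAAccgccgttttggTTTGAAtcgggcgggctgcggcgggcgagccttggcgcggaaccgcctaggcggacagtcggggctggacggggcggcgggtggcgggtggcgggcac
Kif11, chr19:37376132-37376381, plus strand: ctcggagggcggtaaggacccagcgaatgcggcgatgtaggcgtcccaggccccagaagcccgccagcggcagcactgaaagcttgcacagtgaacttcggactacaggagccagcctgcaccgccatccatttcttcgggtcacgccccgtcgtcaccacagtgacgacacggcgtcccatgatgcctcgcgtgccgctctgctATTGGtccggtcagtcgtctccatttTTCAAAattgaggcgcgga
Birc5, chr11:117848987-117849236, plus strand: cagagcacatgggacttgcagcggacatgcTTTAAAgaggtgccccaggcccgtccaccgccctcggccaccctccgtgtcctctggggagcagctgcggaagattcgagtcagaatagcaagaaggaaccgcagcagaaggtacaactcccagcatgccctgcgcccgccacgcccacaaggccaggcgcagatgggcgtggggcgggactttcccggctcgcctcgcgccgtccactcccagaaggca

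The Mki67 window held 3 CCAAT matches between 188 and 137 bases before the start and 2 TTTGAA matches closer to it. Kif11 held 1 of each, at 45 to 41 and 19 to 14 bases. Birc5 held a TTTAAA match at 220 to 215 bases and no CCAAT in this window. Of the 39 mitosis genes, 31 had a promoter in the table, and 24 of these (77.4%) held CCAAT, against 9314 of 27025 promoters of all genes (34.5%). TTTGAA or TTTAAA was found in 14 of 31 (45.2%), against 25.5% of all, and both kinds together in 12 of 31 (38.7%), against 9.0%. Matches of the 2 motifs can overlap by 1 base. A match describes the letters and not a bound site.

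**Figure D4:**
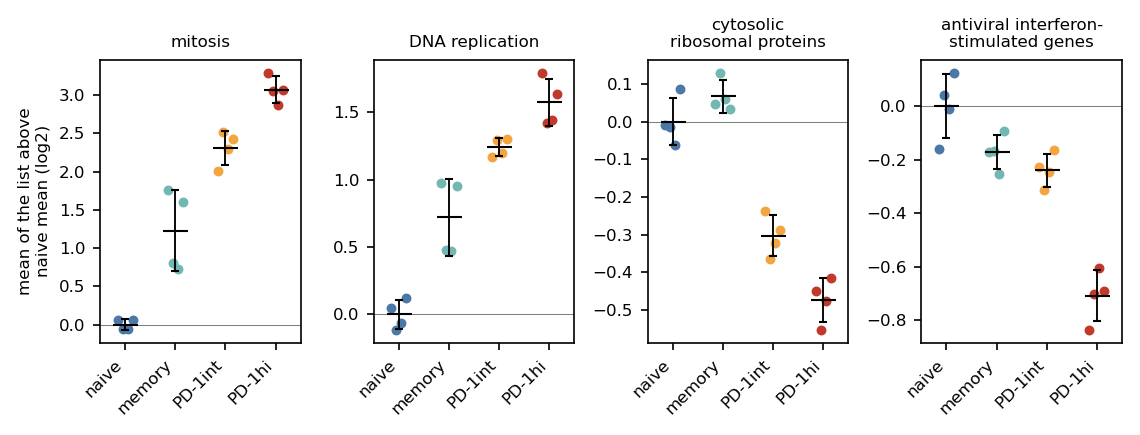
Each point is 1 array: the vertical axis gives the mean level of a list's measured genes minus its mean over the 4 naive arrays (log2), with the subset mean as a bar and the SD as whiskers. The mitosis and DNA replication means are highest in PD-1hi arrays, and those of ribosomal proteins and antiviral interferon-stimulated genes are lowest there.

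Metabolic genes changed less. Of 17 glycolysis genes, 11 rose, among them the glucose transporters Slc2a3 (1.18 ± 0.09) and Slc2a1 (0.67 ± 0.08) and the enzymes Tpi1 (1.10 ± 0.12) and Gapdh (0.89 ± 0.07). Pdk1, which holds pyruvate back from the mitochondrion, read 9.35, 9.43, 9.55 and 9.24 in naive and 6.64, 6.30, 6.63 and 6.67 in PD-1hi arrays (-2.83 ± 0.10, adjusted p = 3.38e-13), and Ldhb fell by 0.68 ± 0.13. Of 27 oxidative phosphorylation genes, 8 rose by 0.28 to 0.65 and Sdha fell (-0.42 ± 0.07). Among 17 cholesterol synthesis genes, 6 rose and 3 fell; only Fdft1 (1.00 ± 0.15), Ebp (0.65 ± 0.09) and Pmvk (0.62 ± 0.09) kept their calls in every alternative run.

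Antiviral interferon-stimulated genes did not rise in any of 27 cases and fell in 15, with a median of -0.38. Cmpk2, a mitochondrial nucleotide kinase induced by type I interferon, read 8.66, 8.73, 8.72 and 8.86 in naive, 8.68, 9.14, 8.63 and 8.67 in PD-1int and 6.64, 7.32, 7.33 and 6.81 in PD-1hi arrays. The PD-1hi arrays were below both (-1.72 ± 0.15 against naive, adjusted p = 3.75e-08, and -1.76 ± 0.15 against PD-1int, adjusted p = 1.6e-06), and PD-1int and naive arrays overlapped. Usp18, a brake on interferon signalling, read 9.15, 9.38, 9.58 and 9.52 in naive and 7.33, 6.98, 7.53 and 7.63 in PD-1hi arrays (-2.04 ± 0.12, adjusted p = 3.65e-10). Oasl2 (-2.96 ± 0.21), Oas2 (-1.55 ± 0.13), Rtp4 (-1.47 ± 0.11), Ifit1 (-1.47 ± 0.18), Oas3 (-1.29 ± 0.14) and the regulators Irf7 (-1.07 ± 0.13) and Irf9 (-0.93 ± 0.07) fell, while Isg15 (0.28 ± 0.12), Mx1 (0.33 ± 0.15) and Ifit3 (-0.05 ± 0.10) did not pass.

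Against PD-1int cells 13 of the 27 were lower, where 1.94% of all genes were, and 0 higher; Usp18 (-0.99), Rtp4 (-0.95), Oas3 (-1.13) and Irf7 (-0.87) were among the 13. The list's mean relative to naive was -0.84 to -0.61 in PD-1hi and -0.32 to -0.16 in PD-1int arrays. Of 12 interferon-inducible GTPases, 8 fell, Iigp1, Igtp (-2.86 ± 0.16), Irgm2 (-2.25 ± 0.11) and Irgm1 (-1.81 ± 0.11) the most, and Gbp3 rose (0.44 ± 0.15), a call lost in some fits that left out 1 array. Memory means were also below naive for Igtp (10.11 against 11.67) and Irgm2 (9.59 against 11.09).

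Cytosolic ribosomal protein genes fell in 24 of 31 cases and rose in 0, by small amounts (median -0.50). Rps24 (-0.90 ± 0.10), Rplp0 (-0.87 ± 0.15) and Rps19 (-0.82 ± 0.09) fell the most. The list's mean relative to naive lay at -0.55 to -0.41 in PD-1hi, -0.36 to -0.24 in PD-1int and 0.03 to 0.13 in memory arrays. Many of these genes have near-identical pseudogenes, so single values are uncertain.

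Of 20 apoptosis regulators, 8 rose and 5 fell. Casp1, an inflammatory caspase, read 7.26, 7.66, 7.67 and 8.13 in naive and 10.93, 10.92, 11.16 and 11.31 in PD-1hi arrays (3.40 ± 0.16, adjusted p = 2.01e-11), and Casp4 rose by 2.69 ± 0.16. The pro-death Pmaip1 (1.36 ± 0.13) and Bak1 (0.96 ± 0.12) and the pro-survival Bcl2l1 (1.11 ± 0.15) rose, while the pro-survival Bcl2 (-0.53 ± 0.15) and the pro-death Bbc3 (-0.84 ± 0.10) and Fas (-0.92 ± 0.19) fell. None of the 20 differed from PD-1int cells by the adjusted test. Among 19 genes of DNA methylation and Polycomb, 7 rose and 6 fell: the maintenance factors Uhrf1 (2.84 ± 0.17), Hells (2.70 ± 0.21) and Dnmt1 (1.01 ± 0.11) and the methyltransferase Ezh2 (2.22 ± 0.15) rose. The demethylation enzymes Tet1 (-1.56 ± 0.15) and Tet3 (-1.40 ± 0.10) and the Polycomb reader Cbx7 (-1.59 ± 0.11) fell.

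Some genes outside these lists set PD-1hi cells apart from PD-1int as well as naive cells; they were chosen after their values were seen. Adgrg1, an adhesion receptor also called GPR56, read 6.23, 5.94, 5.96 and 5.89 in naive, 6.65, 7.31, 7.13 and 7.37 in PD-1int and 9.90, 10.21, 9.35 and 10.18 in PD-1hi arrays. The 3 subsets did not overlap, and PD-1hi cells were 3.90 ± 0.17 above naive (adjusted p = 6.23e-12) and 2.79 ± 0.17 above PD-1int (adjusted p = 1.4e-07). Coch read 9.08, 9.94, 6.82 and 9.50 in PD-1hi arrays and 6.29 to 6.36 in naive arrays, so replicate 3 was near the naive level (2.51 ± 0.42 against naive and 2.39 ± 0.42 against PD-1int). Further steps above PD-1int were measured for the transcription factor Arnt2 (2.00), Chn2 (1.64), which encodes a Rac-inactivating protein, the peptide hormone receptor Glp1r (1.53), Itih5 (1.46) and Neb (1.43). Snx9, a membrane-remodelling gene, stood at PD-1int and naive means of 8.14 and 8.24 and at 9.45 in PD-1hi cells.

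On the lower side, Ly6c2 read 12.04, 12.30, 12.19 and 12.31 in naive, 11.92, 12.66, 12.19 and 11.48 in PD-1int and 8.96, 10.87, 10.12 and 8.98 in PD-1hi arrays. The PD-1hi arrays were below all others and varied (-2.48 ± 0.32 against naive and -2.33 ± 0.32 against PD-1int). Its product, Ly6C, marks memory and effector T cells as well as monocytes, and the gene has a near-identical copy, Ly6c1. Klhl6 (-1.95), Parp8 (-1.90), the transporter Slco3a1 (-1.82) and Tespa1 (-1.58), a component of T-cell receptor signalling, were also lower than in PD-1int cells, each with 4 PD-1hi arrays below every PD-1int and naive array. Cd86 was at means of 8.61 in naive, 8.67 in PD-1int and 7.19 in PD-1hi cells (-1.42 ± 0.28 against naive).

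Of 483 microRNA genes measured, 16 rose and 30 fell, smaller shares than the 13.4% and 13.7% over all genes. The array probes read the locus transcript and not the mature microRNA. The 2 loci below are shown, after their values were seen, because their microRNAs are known in T cells: miR-146a as a brake on NF-kB signalling, and miR-342 as the microRNA of an intron of Evl. Sequences are the mature forms from RefSeq (GRCm38.p6), 5′ to 3′, with the seed, bases 2 to 8, in capitals; the 4 seeds differ from each other. The Mir146 hairpin lies at chr11:43374397-43374461 on the minus strand and the Mir342 hairpin at chr12:108658620-108658718 on the plus strand.
mmu-miR-146a-5p: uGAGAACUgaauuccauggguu
mmu-miR-146a-3p: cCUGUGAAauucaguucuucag
mmu-miR-342-3p: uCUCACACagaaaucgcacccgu
mmu-miR-342-5p: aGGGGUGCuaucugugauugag

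The Mir146 locus read 3.42, 3.57, 3.43 and 3.79 in naive and 6.74, 5.72, 6.60 and 5.97 in PD-1hi arrays (2.71 ± 0.25, adjusted p = 9.44e-08). PD-1int arrays read 4.70, 5.85, 5.89 and 5.79, and no difference from PD-1hi was called (0.70 ± 0.25, adjusted p = 0.16). Mir342 read 8.52, 9.17, 9.77 and 8.98 in naive and 7.19, 5.99, 5.34 and 6.58 in PD-1hi arrays (-2.84 ± 0.34, adjusted p = 3.23e-06). Its host Evl, an actin regulator whose gene spans chr12:108554681-108688516, fell from 12.07, 12.06, 12.09 and 12.03 in naive to 9.92, 9.74, 9.50 and 9.96 in PD-1hi arrays (-2.29 ± 0.09, adjusted p = 2.34e-12). Host and locus were therefore lower in the same 4 arrays.

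T-cell receptor variable segments were read as a measure of how far single arrays depart from their subset's mean, since expanded clones carry single segments. With 6 segments that have a probe set of their own, the mean absolute departure was 0.51 ± 0.09 (SD, n = 4) in PD-1hi and 0.16 ± 0.05 (SD, n = 4) in naive arrays. A two-sided permutation test on these departures gave p = 0.029, the smallest that 4 against 4 arrays allow. All 4 PD-1hi values lay above the naive ones. Departures within a subset share 1 mean, so 1 stray array can raise all 4 and they are not independent. The p is therefore approximate. Trbv13-2 read 9.95, 9.75, 10.81 and 8.61 in PD-1hi and 9.30, 9.45, 9.41 and 9.85 in naive arrays. Trav14d-3-dv8 read 11.01, 10.43, 8.80 and 8.59 in PD-1hi and 9.48, 9.92, 9.61 and 10.16 in naive arrays. The highest PD-1hi array was replicate 3 for the first and replicate 1 for the second, and the lowest was replicate 4 for both. These are the 2 segments with the widest PD-1hi range. In 2 of the 6, Trav12-2 and Trav9d-3, the PD-1hi range (0.70 and 0.13) was no wider than the naive range (0.80 and 0.145). The segments are near copies within their families, and the p rose to 0.057 when segments below the median level were left out or the median departure was taken.

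Markers of other cells that the gate could hold mostly did not pass. Of 16 markers of B cells and CLL cells, 1 rose and 2 fell, and the list's mean relative to naive was -0.10 to 0.21 in naive and -0.13 to 0.10 in PD-1hi arrays. The B-cell markers Ms4a1 (5.35 and 5.40), Cd79a (6.32 and 6.16) and Pax5 (5.72 and 5.83) had like means in naive and PD-1hi arrays; Cd22 rose (0.84 ± 0.12) and Cd79b (-0.97 ± 0.13) and Bank1 (-0.91 ± 0.19) fell. Ighm, the heavy chain gene of IgM, is outside the list and was looked at after its values were seen. It read 12.62, 12.63, 12.57 and 12.69 in naive and 9.31, 8.56, 8.27 and 9.64 in PD-1hi arrays (-3.68 ± 0.26, adjusted p = 2.61e-09), with means of 12.31 in memory and 9.65 in PD-1int cells. The part of B-cell RNA in its level was not tested. Of 10 markers of CD4 and regulatory T cells, 3 rose and 1 fell, with a median difference from naive of 0.04. List means, which the rise of Ctla4 (2.86) pulls up, were -0.07 to 0.07 in naive and 0.25 to 0.34 in PD-1hi arrays. Ctla4, which activated CD8 T cells also express, Izumo1r (0.64 ± 0.11) and Zbtb7b (0.28 ± 0.09) were the rises, and Foxp3 stood at 6.39 and 6.17. Zbtb7b lost its call in some fits that left out 1 array. Against PD-1int cells 3 of the 10 were higher, where 1.37% of all genes were, and 0 lower. They were Ctla4 (0.97), Izumo1r (0.94, adjusted p = 8.4e-05) and Ikzf4 (0.71, adjusted p = 0.0083), and the count was 3 in each alternative run.

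Of 19 myeloid markers, 3 rose and 1 fell, with list means of -0.09 to 0.07 in naive and 0.08 to 0.32 in PD-1hi arrays. Itgax, Itgam and Cst3 (0.57 ± 0.07) rose and Ly6c2 fell, while Csf1r (means 6.33 and 6.58) did not pass, nor did Adgre1 (5.89 and 6.02) and Cd14 (5.04 and 5.07), which were looked at after their values were seen. Lyz2 (0.50 ± 0.19, adjusted p = 0.057) had all 4 PD-1hi arrays above the naive ones and passed in 4 of 8 other settings. The rises of this list came to 5 with the replicate number as a block (Lyz2 at adjusted p = 0.039) and with the 8 arrays alone (adjusted p = 0.028). As background, effector CD8 T cells can express Itgax and Itgam. Of 9 markers of innate-like and gamma-delta T cells and of natural killer cells, Itga2 rose (3.85 ± 0.19) and Ncr1 stood at 5.84 and 5.87. The list's median difference from naive was 0.13. Its means, which Itga2 pulls up, were -0.03 to 0.06 in naive and 0.39 to 0.61 in PD-1hi arrays. Of 9 erythroid and platelet markers, Ppbp rose (1.06 ± 0.26), with list means of -0.15 to 0.11 in naive and 0.12 to 0.35 in PD-1hi arrays. The part of such cells in the results was not tested.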

How the data were processed

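Per the labels' protocols, RNA of sorted cells was extracted with the RNeasy Micro kit, labelled with Affymetrix's WT Pico reagents and put on its Mouse Gene 2.0 ST arrays. The authors deposited log2 values for 41345 probe sets in 16 arrays, made with Affymetrix Power Tools per the submitters' processing notes (version, background correction and normalization not given in the sources used here). Array medians were 6.39 to 6.49. Scanner files were not used, and no batch is named in the labels.

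GEO's platform annotation gave 1 symbol to 23521 probe sets, several to 1814 (not analysed here) and none to 16010; 23328 matched a RefSeq gene by Entrez identifier, and 0 symbols changed. The brightest probe set of each of 1082 genes with several was kept, which left 22180 genes, with no filter on dim ones. Limma 3.58.1 in R 4.3.3 fitted a mean for each of the 4 subsets over all 16 arrays (lmFit, eBayes), and the threshold was an adjusted p of 0.05. The median standard error of a difference was 0.10; the number of arrays limits the precision. On simulated data for PD-1hi against naive over 22180 genes, 63 of 100 genes changed by 0.5 and 94 of 100 changed by 1 were called, with 10 calls among 21980 unchanged genes. A far smaller share of genes was changed there than the 27.1% called in the data, so these rates need not hold for this comparison. T-cell receptor segments were compared with a permutation test over 4 and 4 arrays. It exchanged departures taken from each array's own subset mean, so its p is approximate.

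The lists, members and alternatives were chosen with earlier results of these data known. Genes named were the 15 largest rises and falls with non-overlapping arrays (no predicted loci, small RNAs or receptor segments) and the sort genes. For each list up to 6 members in each direction with the smallest adjusted p were added, with members against its main direction where these were 5 or fewer and up to 3 that differed from PD-1int. The first 4 markers of each list of other cells were added too, and further list members were named for their roles after their values were seen, as were the genes outside lists. Alternatives were a replicate block, the 8 arrays alone, array weights, leaving out each array in turn, a filter on the 40% dimmest genes, mean probe sets, quantile and median normalization, and trended and robust eBayes. Promoters and mature microRNAs came from RefSeq tables (GRCm38.p6).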

Additional observations from a re-analysis of the deposited data

Results flagged for a closer look

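In each set of 4 arrays, naive or PD-1hi, the array farthest from the others was compared with the spread of the set, for every gene named and every list mean (636 sets, Dixon's test at the 95% level). In 32 sets 1 array stood apart, and chance gives about 1 in 20 sets, so the number alone is no result. Levels below are log2.

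PD-1hi replicate 2 was low for Klrk1 (8.87, the others 9.96 to 10.07), Klrd1 (10.39, the others 11.08 to 11.16) and Pdk1 (6.30, the others 6.63 to 6.67), and high for Slc28a2b (7.33, the others 6.10 to 6.29) and Ldhb (7.61, the others 7.11 to 7.17). Its mean of the apoptosis regulators above the naive mean was 0.57, where the others gave 0.67 to 0.69.

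PD-1hi replicate 4 was high for Csf1r, a myeloid gene (7.03, the others 6.39 to 6.48), Rab27a (10.80, the others 10.28 to 10.35), Sytl2 (11.08, the others 10.80 to 10.82), Ctla2a (12.35, the others 12.15 to 12.17) and S100a6 (12.92, the others 12.85), and low for Zbtb7b (7.25, the others 7.42 to 7.44). Its mean of the B-cell and CLL markers was 0.10, the others -0.13 to -0.10. PD-1hi replicate 1 was low for Cd3e (12.86) and Igtp (8.47) and high for the mitosis gene Kif20a (9.26, the others 8.83 to 8.86). PD-1hi replicate 3 was low for Itgae (6.33, the others 6.69 to 6.75) and high for Gzmf (4.89).

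In the naive set, replicate 4 was high for S100a6 (6.96, the others 6.10 to 6.16) and for the B-cell marker Ms4a1 (5.73, the others 5.18 to 5.27). Its mean of the cytotoxic list was 0.0898 above the naive mean and that of the chemokine and egress receptors -0.10. Naive replicate 3 was high for Ctla2b (5.74) and Klrc2 (4.89) and low for Klra9 (3.70) and Kif11 (5.61), with a mean of the costimulatory receptors of -0.0451. Naive replicate 1 was high for Dusp1 (9.18) and Gpr183 (8.65, the others 8.16 to 8.23) and low for Cd86 (8.23, the others 8.72 to 8.76) and Snx9 (8.08). Naive replicate 2 was low for Irf9 (10.20, the others 10.29 to 10.30).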

How the results depend on the processing

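The 6020 genes that differed between PD-1hi and naive cells became 5337 with the 8 arrays alone, 5882 without the 40% dimmest genes, 5988 with mean probe sets, 6052 and 5868 with quantile and median normalization, 6061 with trend and robust settings and 5796 with array weights. Leaving out 1 array gave 5540 to 5750, and 1367 to 1400 genes of 2-fold or more. For PD-1hi against PD-1int, leaving out 1 array gave 470 to 751 genes in place of 734, and the other fits 582 to 885. The difference in T-cell receptor segment departure was 0.35 (approximate permutation p = 0.029). It was 0.20 without segments below the median and 0.33 with the median departure (approximate permutation p = 0.057 for each). When 1 array was left out it was 0.26 to 0.40. Of 338 genes that the text or the naming rule names, 21 changed their call against naive under at least 1 alternative, and 0 reversed in any.

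With the replicate number as a block, 6027 genes differed from naive, 1375 by 2-fold or more, and 748 from PD-1int. The deviations of same-numbered PD-1hi and naive arrays from their subset means correlated at 0.02, 0.04, 0.03 and -0.02. Of the 4 PD-1hi arrays, 3 correlated best with their own number. The numbers were not taken to pair the arrays, and whether a number marks 1 mouse is not stated in the labels. Such correlations were not taken between PD-1hi and PD-1int arrays, where only the block fit used the numbers. Cd226 and Ly6c2 were highest in replicate 2 and next highest in replicate 3 in both effector subsets. List counts against PD-1int, and list members named beside the rule, were put through these alternatives after seeing the data. Several of them moved when 1 array was left out, as given beside them. Without detection calls, low signal could not be told from absence.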

Other observations

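Some of the larger differences between PD-1hi and naive cells lay in genes that no list held, and those named here were chosen after their values were seen. Osbpl3, an oxysterol-binding protein gene, read 5.73, 5.77, 6.04 and 6.11 in naive and 10.88, 10.91, 10.82 and 10.93 in PD-1hi arrays (4.97 ± 0.12, limma adjusted p = 2.35e-15). Plek, which encodes the cytoskeletal and secretion protein pleckstrin, read 6.21, 6.44, 6.22 and 5.95 in naive and 11.03, 10.66, 10.79 and 10.99 in PD-1hi arrays (4.66 ± 0.11). The groups were tight and did not overlap in either gene. Ctla2a, which encodes an inhibitor of cathepsin-like proteases, read 7.90, 7.14, 7.69 and 7.72 in naive and 12.16, 12.17, 12.15 and 12.35 in PD-1hi arrays (4.60 ± 0.12, adjusted p = 7.7e-15). Its memory mean was 12.45, and no difference between PD-1hi and PD-1int cells was called. The neighbouring copy Ctla2b rose by 4.41 ± 0.14, and the close likeness of the pair makes single values uncertain. Smpdl3b (4.23 ± 0.20), the granule-docking gene Sytl2 (4.01 ± 0.13), the inflammasome sensor Naip2 (3.74 ± 0.13), the sulfotransferase Chst11 (3.70 ± 0.09) and the kinase Lrrk1 (3.49 ± 0.10) rose too. Lrrk1 was 0.46 below PD-1int cells (adjusted p = 0.011).

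Among the falls outside the lists, Tlr1, a receptor for bacterial lipopeptides, read 11.26, 11.12, 11.13 and 11.04 in naive and 7.07, 8.29, 7.09 and 7.52 in PD-1hi arrays (-3.64 ± 0.19), and it was 1.17 below PD-1int cells (adjusted p = 0.0014). St6gal1, which adds sialic acid to surface glycans, read 9.65 to 10.07 in naive and 6.65, 6.06, 6.25 and 6.56 in PD-1hi arrays (-3.52 ± 0.16, adjusted p = 8.7e-12), with a memory mean of 9.86 near the naive level. The amino acid transporter gene Slc6a19 behaved differently across the subsets. It read 9.56, 9.68, 9.81 and 9.34 in naive and 5.99, 6.36, 6.23 and 6.23 in PD-1hi arrays (-3.39 ± 0.11), and its memory mean was 6.58, close to the PD-1hi level. Gpr34 (-3.13 ± 0.14) had a memory mean of 5.75 as well. Irs2, an adaptor of insulin and cytokine receptors, fell by 3.24 ± 0.19. Emb, which encodes the adhesion protein embigin, fell by 3.06 ± 0.20 and was 1.30 below PD-1int cells (adjusted p = 0.00079).

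The mean of the B-cell and CLL markers relative to the naive mean was highest in replicate 4 of each subset, at 0.21 in the naive and 0.10 in the PD-1hi array, and at 0.39 and 0.25 in those of memory and PD-1int cells.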
